A study of Mus musculus with 24 samples.

Results

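Tnf, the gene for tumour necrosis factor, was followed in basophils lacking tristetraprolin (TTP-KO) and in wild-type (WT) basophils after IgE-mediated stimulation. It was taken from the deposited table as the row whose symbol is Tnf (ENSMUSG00000024401, on chromosome 17), which is 1 gene of 15737 in the table and 1 of the 12936 with enough reads to be tested. TNF is made as a membrane-bound protein that the protease ADAM17 releases, and it signals through the receptors TNFR1 and TNFR2 to NF-kB and to cell death pathways. Activated mast cells, basophils and macrophages all make it. Its mRNA is short-lived: tristetraprolin (TTP, the product of Zfp36) binds AU-rich elements in the 3' untranslated region (UTR) and recruits the CCR4-NOT deadenylase, and mice without TTP develop inflammation that depends on TNF.

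The AU-rich region that TTP is known to bind is shown first, as the element of this mRNA that the missing protein is known for, with the matching regions of other induced mRNAs described further on. Each line gives, 5' to 3' in DNA letters on the transcript's strand, the 30 bases of the 3' UTR that hold the most copies of TATTTAT, with the copies in capitals. The Tnf line covers bases 438 to 467 of its 764-base 3' UTR. Only the transcript's own strand was searched, and copies may overlap. The sequences are from GENCODE M21 (GRCm38), which is not the build the submitters name (GRCm39), so no genome positions are given.
Tnf: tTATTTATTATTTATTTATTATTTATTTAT
Ptgs2: actgaccaTATTTATTTATTTATgtgaaga
Cxcl2: ctTATTTATTTATctatgTATTTATTTATt
Il1b: cttaccTATTTATTTATgTATTTATtgatt
Ccl3: tgtatttgtgacTATTTATtctgaaagact
Il6: atttatgattgaTATTTATtatttttatga
The Tnf 3' UTR held 8 copies of TATTTAT, 5 of them in the window shown, and 5 copies of the longer TTATTTATT, which contains it. Of the 12734 tested genes with an annotated 3' UTR, 30.7% held TATTTAT at least once and 8.39% held TTATTTATT. As many TATTTAT as in Tnf, or more, stood in 21 genes (0.165%), and as many TTATTTATT or more in 22 genes (0.173%). Ptgs2 (the inducible cyclooxygenase) had 6 copies of TATTTAT in 2445 bases, Cxcl2 (a neutrophil-attracting chemokine) 7 in 1494 bases, and Il1b (interleukin-1 beta) 3 in 459 bases. Ccl3 (a chemokine) and Il6 (interleukin-6) had 1 each, in 409 and 1668 bases. A copy is a match of letters, not a measured binding site.

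The Tnf 3' UTR also carries the constitutive decay element, a stem-loop bound by the Roquin proteins (Rc3h1 and Rc3h2). It is shown because it is a separate decay signal of the same mRNA, with the hairpin in capitals: the loop TGT between a stem of 5 bases and its reverse complement.
Tnf decay element: acatgTTTTCTGTGAAAAcggag
Its capitals covered bases 547 to 559 of the 3' UTR, with 79 bases between the end of the AU-rich window and their start. It was the 1 hairpin of that stem length and loop in the Tnf 3' UTR, and its 13 letters, TTTTCTGTGAAAA, stood in the 3' UTRs of 7 tested genes (0.055%) on the transcript's strand.

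The study measured TTP-KO and WT cells at 0, 1, 2 and 4 h after antigen was removed, with 3 libraries in each of the 8 groups and 24 in all. Mouse bone marrow was grown for 7 days in IL-3 at 0.3 ng/mL, and on day 6 received TNP-specific IgE (1 µg/mL) with 150 µM s4U, the nucleoside 4-thiouridine, which is built into RNA made from then on. Cells positive for CD49b were enriched with magnetic beads, stimulated for 1.5 h with TNP-coupled ovalbumin at 10 ng/mL and s4U, washed, and kept without either. How Zfp36 was disrupted is not in the labels. Nor do they tell if a group's 3 libraries were made from different mice or cultures, so the p-values reflect the spread between libraries, which may be technical. The reads count labelled and unlabelled RNA together. They give the level of Tnf mRNA and not its half-life.

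Libraries held 8839260 to 25372890 reads, and the KO 4 h libraries B and C were the smallest. Levels are in CPM, a library's reads brought to a common total, after TMM scaling (edgeR's correction for library composition). All 10 basophil markers had reads in every library, with summed group means of 33129 to 50535 CPM in KO cells and 31064 to 46732 CPM in WT cells. Zfp36 itself stood at 185 ± 26.2, 46.3 ± 11.4, 40.0 ± 12.1 and 37.5 ± 21.4 CPM in KO cells at 0, 1, 2 and 4 h, against 237 ± 27.8, 126 ± 21.5, 75.5 ± 2.93 and 68.4 ± 9.89 CPM in WT cells (SD, n = 3 each). At 0 h the highest KO library held 210 CPM of Zfp36 and the lowest WT library 218.6 CPM, and at 4 h the libraries overlapped. The tests of Zfp36 are given further on, with the other genes that bind Tnf mRNA. The tags read the 3' end of the mRNA, and where the gene was disrupted is not known here, so the genotype labels are not checked by Zfp36.

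Tnf mRNA was higher in TTP-KO than in WT cells at every time, by 2.28-fold when antigen was removed, 2.89-fold 1 h later, 1.56-fold at 2 h and 1.47-fold at 4 h. The differences at 2 h and 4 h were less firm. They were lost in some of the other fits given below, and at 4 h the libraries overlapped. In both genotypes it fell steeply after antigen was removed. At 4 h the KO mean was 9.54% of its 0 h mean, and the WT mean was 14.8% of its own.

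At 0 h the KO libraries A, B and C held 849.5, 736 and 875.5 CPM of Tnf, and the WT libraries 374, 314.5 and 393 CPM. The lowest KO library stood well above the highest WT library. Means were 820.4 ± 74.1 CPM in KO cells and 360.4 ± 40.9 CPM in WT cells (SD, n = 3 each), a log2 difference of 1.19 ± 0.15 (SE; adjusted p = 2.11e-07, edgeR's quasi-likelihood test with Benjamini-Hochberg adjustment over all genes tested). Genes passing this test at an adjusted p under 0.05, here called passing, made up 0.526% of those tested at 0 h, and by p-value Tnf stood at rank 13. In these bulk samples, fewer cells of a type and less RNA per cell cannot be told apart.

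At 1 h the KO libraries held 582, 619 and 590.1 CPM, and the WT libraries 218, 200.2 and 202 CPM. Again no libraries overlapped, and both groups stood below their 0 h levels. Means were 597 ± 19.1 CPM in KO cells and 207 ± 10.0 CPM in WT cells, with a log2 difference of 1.53 ± 0.15 (adjusted p = 1.44e-10, edgeR), rank 12 by p-value. At this time 0.502% of genes passed. The fold change at 1 h was not shown to differ from that at 0 h, with a log2 difference between the 2 of 0.34 ± 0.21 (adjusted p = 1, edgeR; 0.0618% of genes passed).

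At 2 h the levels were 168, 152 and 192 CPM in the KO libraries and 131, 96.5 and 101 CPM in the WT libraries. The highest WT library, A, came within reach of the lowest KO library, B, without overlap. Means were 171 ± 19.9 CPM in KO cells and 109 ± 18.9 CPM in WT cells, with a log2 difference of 0.64 ± 0.15 (adjusted p = 0.0189, edgeR; 0.518% of genes passed). Without WT 2 h B, WT 2 h C or KO 2 h C in turn, the difference was 0.56, 0.58 or 0.55 and did not pass (adjusted p = 0.0884, 0.0965 and 0.156, edgeR). A fit of the 6 libraries of 2 h alone gave 0.64, which did not pass either (adjusted p = 0.221, edgeR).

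At 4 h the KO libraries held 90.0, 67.3 and 77.5 CPM, and the WT libraries 46.8, 45.0 and 67.9 CPM. The groups now overlapped, since WT library C lay just above KO library B. Means were 78.3 ± 11.4 CPM in KO cells and 53.2 ± 12.7 CPM in WT cells, with a log2 difference of 0.56 ± 0.15 (adjusted p = 0.0329, edgeR; 1.82% of genes passed, and rank 181 by p-value). The call was lost without WT 4 h A (0.48, adjusted p = 0.171, edgeR), WT 4 h B (0.46, adjusted p = 0.193), KO 4 h A (0.46, adjusted p = 0.104) or KO 4 h C (0.57, adjusted p = 0.0698). It was also lost in a fit of the 6 libraries of 4 h alone (0.57, adjusted p = 0.452, edgeR).

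**Figure D1:**
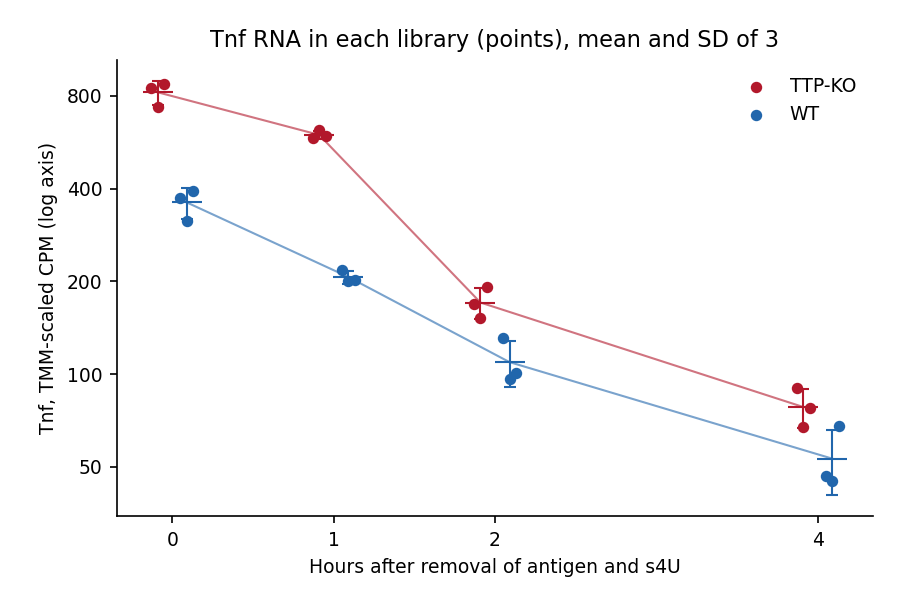
Tnf level in each library (points, TMM-scaled CPM on a log axis) against hours after removal of antigen and s4U, for TTP-KO (red) and WT (blue), with the mean and SD of 3 libraries. KO libraries lie above WT libraries at 0, 1 and 2 h, and at 4 h WT library C (67.9 CPM) lies among the KO libraries (67.3 to 90.0 CPM).

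All 3 KO libraries stood above all 3 WT libraries at 0, 1 and 2 h. The same separation held for 6.87%, 5.82% and 6.13% of genes tested at those times. Over the 8 groups the means ran, from high to low, KO 0 h, KO 1 h, WT 0 h, WT 1 h, KO 2 h, WT 2 h, KO 4 h and WT 4 h, a range of 15.4-fold. Neighbours in this order did not overlap in their libraries, except KO 4 h and WT 4 h. Tnf at 1 h in KO cells (582 to 619 CPM) was thus still above Tnf at 0 h in WT cells (314.5 to 393 CPM).

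Set against their own 0 h means, the genotypes' values changed places between 1 and 2 h. KO cells held 72.8% of their 0 h mean at 1 h, 20.8% at 2 h and 9.54% at 4 h. WT cells held 57.4%, 30.4% and 14.8% at the same times. In KO cells the first hour brought a log2 difference of -0.46 ± 0.15, which did not pass (adjusted p = 0.082, edgeR, where 2.74% of genes passed). It passed with no filter on low counts (adjusted p = 0.0479, edgeR), in a fit of those 2 groups alone (adjusted p = 0.0078, edgeR), without the KO 4 h libraries B and C (adjusted p = 0.0444, edgeR) and in DESeq2 (adjusted p = 0.0391). In WT cells Tnf fell in that hour by 0.80 ± 0.15 (adjusted p = 0.000269, edgeR; 2.33% of genes passed).

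The steepest step in KO cells came between 1 and 2 h, when Tnf fell by 1.81 ± 0.15 on the log2 scale, that is 3.5-fold (adjusted p = 1.33e-12, edgeR). Only 5 genes had a smaller p-value in that step, in which 3.01% of genes passed. In WT cells the same step was a fall of 0.92 ± 0.15 (adjusted p = 2.67e-05, edgeR; 2.8% passed). The genotypes' changes in this step differed by -0.89 ± 0.21 (unadjusted p = 8.31e-05, rank 4 by p-value), which did not pass over all genes (adjusted p = 0.255, edgeR). In edgeR 0 genes passed for this difference (0%). An unadjusted p under 0.05 was found for 717 of 12936 genes (edgeR), near the share that this threshold lets through without any difference. In DESeq2 75 genes passed, Tnf among them (-0.92, adjusted p = 0.00258). It also passed in edgeR with no filter on low counts (-0.89, adjusted p = 0.0453), without WT 2 h B (-0.97, adjusted p = 0.0276) and without the KO 4 h libraries B and C (-0.91, adjusted p = 0.0121). The changes of the first and of the second hour share the 1 h libraries.

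From 2 to 4 h Tnf fell by 1.12 ± 0.15 in KO cells (adjusted p = 2.08e-07, edgeR; 6.39% of genes passed) and by 1.04 ± 0.15 in WT cells (adjusted p = 1.58e-06; 5.06% passed). The difference of these changes was -0.08 ± 0.21 (adjusted p = 1, edgeR; 0.0155% passed), and its sign turned with the scaling and with single libraries. Over the whole 4 h Tnf fell by 3.39 ± 0.16 in KO cells, 10.5-fold (adjusted p = 1.16e-22, edgeR; 18.1% passed), and by 2.76 ± 0.16 in WT cells, 6.77-fold (adjusted p = 1.39e-19; 16.7% passed). The difference of the 2 changes was -0.63 ± 0.21 (unadjusted p = 0.00395) and did not pass over all genes (adjusted p = 0.286, edgeR; 0.193% passed). Straight lines through the 4 times gave a decline of -0.90 ± 0.06 per hour in KO cells (adjusted p = 1.6e-14, edgeR; 20.2% passed) and -0.69 ± 0.06 per hour in WT cells (adjusted p = 5.86e-12; 16.5% passed). These slopes differed by -0.21 ± 0.07 per hour, which did not pass (adjusted p = 0.449, edgeR; 0.00773% passed).

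Markers of macrophages and monocytes, cells that also make TNF, moved with genotype and time. Of the 20 markers, 18 were in the table and were tested, and 9, 7, 8 and 7 of them were higher in KO cells at 0, 1, 2 and 4 h (edgeR), with 0 lower. Over all genes 0.448%, 0.402%, 0.41% and 0.943% were higher. Their summed level was 2447 to 2513, 2231 to 2491, 1825 to 2198 and 1367 to 1751 CPM in the KO libraries at the 4 times, against 1150 to 1189, 918 to 1064, 840.1 to 865 and 711 to 789.7 CPM in the WT libraries. Some defining markers were at 0 in part of the libraries, Fcgr1 in 7, Mrc1 in 4, Cx3cr1 in 2 and Ms4a7 in 1, and Cd163 and Marco were not in the table. Apoe (a lipoprotein) stood at 367 ± 32 CPM in KO cells and 53.5 ± 3.99 CPM in WT cells at 0 h, and Ctss (cathepsin S) at 274 ± 16.0 and 44.9 ± 6.54 CPM. Other markers lay close between the genotypes or on the other side of WT without passing: at 0 h Adgre1 (F4/80) stood at 97.9 ± 17.3 CPM in KO cells and 94.6 ± 11.2 CPM in WT cells, and Ly6c2 at 75.5 ± 9.96 and 95.9 ± 17.7 CPM. Ccr2, a chemokine receptor of monocytes, stood at 107 ± 8.26 CPM in KO cells and 124 ± 8.75 CPM in WT cells. These markers were named after their values were seen. The summed markers averaged 2490 CPM in KO cells and 1166 CPM in WT cells at 0 h, and 1544 and 755.5 CPM at 4 h. Tnf averaged 820.4 CPM in KO cells and 360.4 CPM in WT cells at 0 h, and 78.3 and 53.2 CPM at 4 h. The part of these cells in the Tnf result was not tested.

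**Figure D2:**
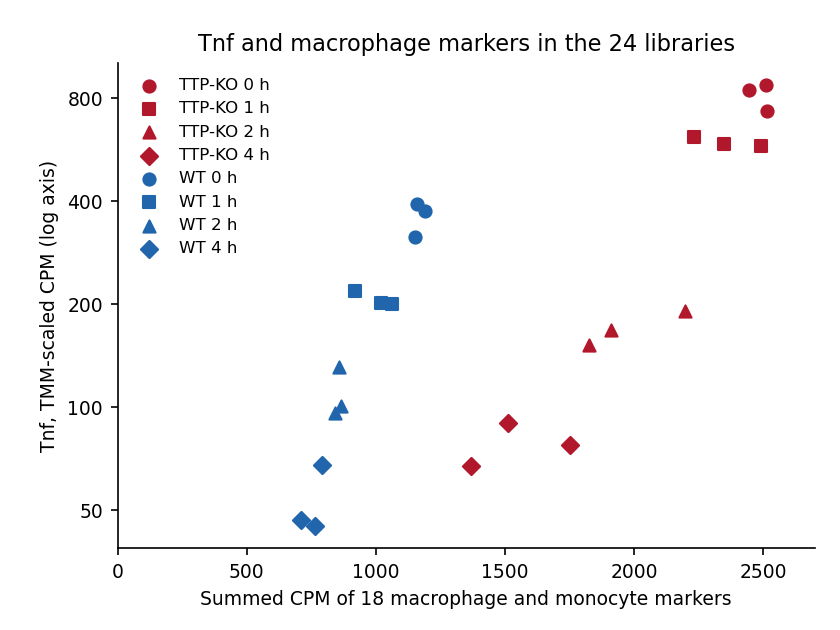
Tnf (TMM-scaled CPM, log axis) against the summed CPM of 18 macrophage and monocyte markers in the 24 libraries, TTP-KO in red and WT in blue, with a symbol for each time. The KO libraries all lie to the right of the WT libraries (1367 CPM or more against 1189 CPM or less), and Tnf runs from 67.3 to 875.5 CPM in the KO libraries and from 45.0 to 393 CPM in the WT libraries.

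Markers of the other cell types were summed in the same way. Mast cell markers had group means of 131 to 145 CPM in KO cells and 182 to 266 CPM in WT cells. Of the 4 tested, 1, 0, 0 and 1 were lower in KO cells at 0, 1, 2 and 4 h (edgeR), and 0 higher. Over all genes 0.0773%, 0.1%, 0.108% and 0.881% were lower. Neutrophil markers had group means of 3392 to 3833 CPM in KO cells and 2557 to 4401 CPM in WT cells, and eosinophil markers 178 to 256 and 169.7 to 228 CPM. Dendritic and B cell markers summed to 264 to 337 CPM in KO cells and 166 to 194.5 CPM in WT cells, nearly all from Cd74, H2-Aa and Itgax. Of the 7 tested, 2, 2, 1 and 1 were higher in KO cells at 0, 1, 2 and 4 h (edgeR), and 0 lower. Cd74 was among them at all 4 times. Over all genes 0.448%, 0.402%, 0.41% and 0.943% were higher. The B cell marker Ms4a1 was at 0 in 16 of the 24 libraries, and the NK and T cell markers Klrb1c and Cd3g in 23 each. Their part in the Tnf result was not tested.

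Among the ligands of the TNF superfamily, Tnf was the gene that passed between the genotypes. Of 18 ligand genes, 15 were in the table and 12 were tested, and Tnf was higher at each of the 4 times while 0 of the other 11 passed in either direction (edgeR). At an unadjusted p under 0.05, 3, 1, 1 and 1 ligand genes were higher, Tnf included, and 0 lower. Over all genes tested the shares that passed were 0.526%, 0.502%, 0.518% and 1.82%, and those at an unadjusted p under 0.05 were 6.96%, 7.08%, 7.29% and 11.8%, so few or no calls in a short list are near the background. In DESeq2 Tnf was called at each time, and Tnfsf13b (BAFF, a B cell survival factor), with few reads, was called lower at 2 h. Without the KO 4 h libraries B and C, 1 KO library is left at 4 h, so no 4 h call of that fit is given for the ligands. The median over the 12 genes was 0.27, 0.08, 0.52 and 0 on the log2 scale, against 0, -0.01, 0.00032 and 0 over all genes. With genes at 0 in a whole group set to the bound that 3 counts over the group allow, it was 0.78, 0.08, 0.52 and 0.13.

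The genes next to Tnf are Lta (lymphotoxin alpha) and Ltb (lymphotoxin beta), ligands of the same family. Lta was at 0 in all 3 libraries at 0, 1 and 4 h in KO cells and at 1 and 4 h in WT cells, and its highest library held 1.72 CPM, so it was not tested. Ltb averaged 2.49 ± 1.92, 3.04 ± 1.39, 9.08 ± 1.85 and 3.79 ± 1.13 CPM in KO cells at 0, 1, 2 and 4 h, and 4.51 ± 3.11, 4.71 ± 1.71, 6.68 ± 3.03 and 9.12 ± 5.47 CPM in WT cells. Its log2 difference ran from -1.27 to 0.44 over the 4 times and did not pass at any. The Ltb 3' UTR of 174 bases held 0 copies of TATTTAT. Tnfsf14 (LIGHT) did not pass between genotypes but fell over the 4 h, by 2.68 ± 0.23 in KO cells (adjusted p = 3.38e-13, edgeR) and by 2.11 ± 0.23 in WT cells (adjusted p = 2.59e-10). Tnfsf14 was named after its values were seen.

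For the receptors, too, the count of calls between the genotypes was near the background. Of 26 receptor genes of the family, 23 were in the table and 21 tested, and 0 passed at any time in edgeR or in DESeq2, with 2, 0, 1 and 3 at an unadjusted p under 0.05 at 0, 1, 2 and 4 h, where 0.526% to 1.82% of all genes passed and 6.96% to 11.8% had such a p. Tnfrsf1b, which encodes TNFR2, averaged 357 ± 39.3 CPM in KO cells and 327 ± 19.9 CPM in WT cells at 0 h (log2 difference 0.12 ± 0.16, adjusted p = 1, edgeR). It fell over the 4 h by 1.42 ± 0.17 in KO cells and by 1.39 ± 0.17 in WT cells (adjusted p = 2.12e-09 and 3.9e-09, edgeR). Tnfrsf1a, which encodes TNFR1, averaged 12.8 ± 1.75 CPM in KO cells and 14.5 ± 3.78 CPM in WT cells at 0 h (-0.17 ± 0.65, adjusted p = 1, edgeR). The 3' UTRs of Tnfrsf1a (490 bases) and Tnfrsf1b (2324 bases) held 0 copies of TATTTAT.

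Other receptors changed with time. Tnfrsf9 (4-1BB, a costimulatory receptor) rose to 155 ± 18.1 CPM in KO cells at 4 h, against 3.06 ± 2.10 CPM at 0 h, and to 97.6 ± 18.2 CPM in WT cells, against 5.94 ± 1.07 CPM at 0 h. These are log2 changes of 5.67 ± 0.43 and 4.04 ± 0.40 (adjusted p = 7e-15 and 2.65e-11, edgeR). Tnfrsf18 (GITR, another costimulatory receptor) rose by 1.38 ± 0.23 in KO cells and by 1.45 ± 0.23 in WT cells. Tnfrsf26, a mouse receptor of the family, fell by 2.57 ± 0.22 and by 2.23 ± 0.22. Over these 4 h, 2 of the 21 tested receptor genes passed as higher and 4 as lower in KO cells, and 3 and 4 in WT cells. Over all genes 7.45% were higher and 10.6% lower in KO cells at 4 h than at 0 h, and 6.76% and 9.97% in WT cells. In so short a list these counts are near the background. These receptors were named after their values were seen.

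Genes for the processing of TNF and for signalling below its receptors gave 1 call between the genotypes, which at shares of 0.526% to 1.82% over all genes is near the background. Of 8 processing genes, all tested, Rhbdf2 (iRhom2, which brings ADAM17 to the cell surface) was lower in KO cells at 4 h, with 82.7 ± 31.1 CPM in KO and 133 ± 1.59 CPM in WT (-0.68 ± 0.19, adjusted p = 0.0381, edgeR). That call was lost with scaling by library size alone and without the KO 4 h libraries B and C, which leaves 1 KO library at 4 h. Adam17 averaged 102 ± 10.8 CPM in KO cells and 125 ± 7.18 CPM in WT cells at 0 h (-0.28 ± 0.20, adjusted p = 0.84, edgeR). At 0, 1 and 2 h 0 processing genes passed in edgeR or DESeq2, with 0, 0 and 1 at an unadjusted p under 0.05.

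The 31 signalling genes, which cover the receptor complex, the ubiquitin and IkB kinases and NF-kB, gave 0 calls at any time in edgeR, with 0, 1, 3 and 2 at an unadjusted p under 0.05. DESeq2 called Traf5 higher at 2 h (1.91, adjusted p = 0.039) and Tab2 lower at 4 h (-0.45, adjusted p = 0.00893). Without the KO 4 h libraries B and C edgeR called Tnfaip3, which encodes the NF-kB inhibitor A20, higher at 2 h. Nfkbia (IkB-alpha), an early NF-kB target, averaged 1294 ± 154 CPM in KO cells and 1462 ± 119 CPM in WT cells at 0 h (-0.18 ± 0.12, adjusted p = 0.795, edgeR). Tnfaip3 averaged 109 ± 30.6 and 114 ± 10.4 CPM (-0.06 ± 0.22, adjusted p = 1, edgeR). These NF-kB targets were named after their values were seen.

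**Figure D3:**
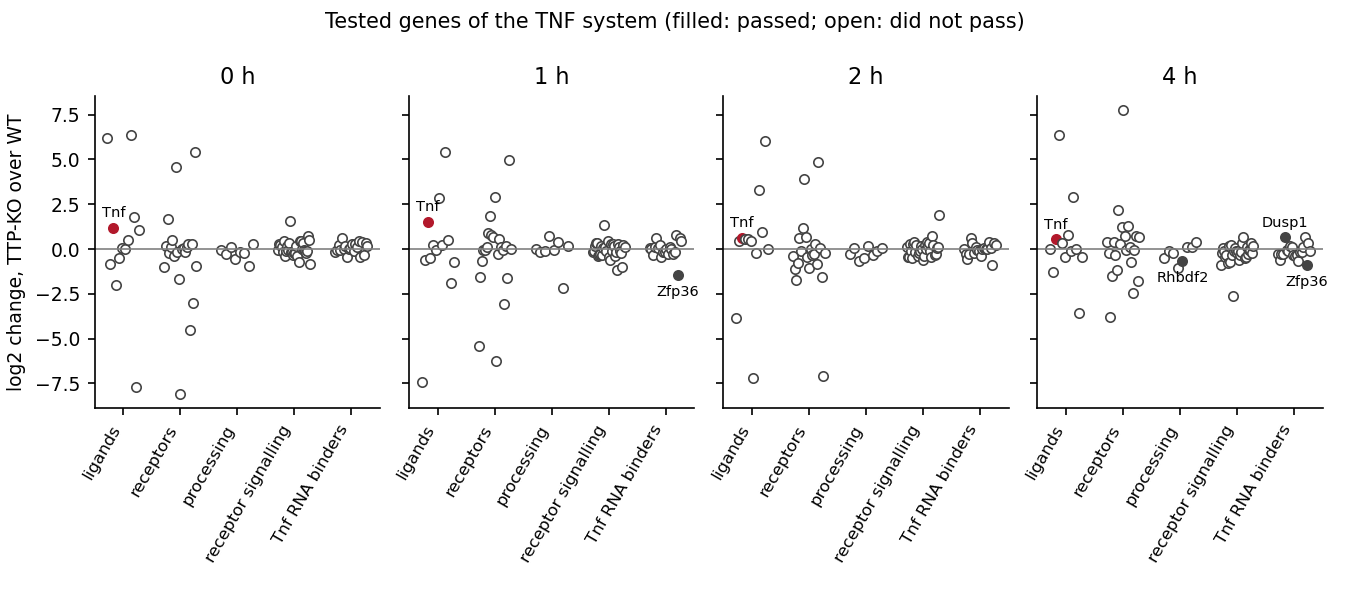
Log2 difference, TTP-KO over WT, at 0, 1, 2 and 4 h for the tested genes of the TNF system (12 ligands, 21 receptors, 8 processing genes, 31 signalling genes and 20 Tnf RNA binders), with filled points for genes that passed in edgeR. Tnf is the filled point among the ligands at every time, and the genes beyond 2.5 in either direction averaged at most 2.60 CPM, so their fitted values rest on few reads.

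The proteins that bind Tnf mRNA or control its decay were covered by 20 genes, all tested. Zfp36 was lower in KO cells at 1 h (-1.45 ± 0.24, adjusted p = 0.000116, edgeR) and at 4 h (-0.87 ± 0.24, adjusted p = 0.0422), and did not pass at 0 h (-0.36 ± 0.24, adjusted p = 0.796) or 2 h (-0.92 ± 0.24, adjusted p = 0.0652). The 4 h call was lost with DESeq2 size factors and with scaling by library size alone. Dusp1, a phosphatase that turns off the p38 kinase upstream of TTP, was higher in KO cells at 4 h (0.67 ± 0.17, adjusted p = 0.0248, edgeR), and stood at 0.60 to 0.64 at the earlier times without passing. DESeq2 called Dusp1 higher at all 4 times and Zfp36l2 higher at 1 h (0.44). Without the KO 4 h libraries B and C, edgeR too called Dusp1 higher at 0, 1 and 2 h, and Zfp36 lower at 1 and 2 h. That fit leaves 1 KO library at 4 h, so its 4 h calls are not given.

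The paralogues of TTP, which bind the same kind of AU-rich element, did not pass in edgeR. Zfp36l1 stood at log2 differences of 0.33, 0.61, 0.36 and 0.36 at 0, 1, 2 and 4 h, and Zfp36l2 at 0.19, 0.42, 0.22 and -0.11. Elavl1 (HuR, a stabilising AU-rich binder) ran from -0.24 to 0.22, and Hnrnpd (AUF1) from -0.18 to 0.12. The nucleases and adaptors that act on the Tnf stem-loop did not pass either: Rc3h1 (Roquin-1) ran from -0.69 to 0.26, and Zc3h12a (Regnase-1) from 0.05 to 0.78.

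Tnf was then set beside a list of 36 inducible mRNAs, itself included, called AU-rich here. The name does not hold for all of them by the motif searched: the 3' UTRs of Il3, Myc, Ccl2 and Ccl7 held 0 copies of TATTTAT. Of these, 34 were in the table and 33 tested. At 0, 1, 2 and 4 h, 13, 14, 12 and 12 were higher in KO cells (edgeR), and 0, 1, 0 and 1 lower, the lower one being Zfp36. Over all genes tested, 0.448%, 0.402%, 0.41% and 0.943% were higher and 0.0773%, 0.1%, 0.108% and 0.881% lower. Without Tnf the counts were 12, 13, 11 and 11 of 32. The median log2 difference of the 33 was 0.63, 0.67, 0.56 and 0.41, against 0, -0.01, 0.00032 and 0 over all genes. Without the KO 4 h libraries B and C, which leaves 1 KO library at 4 h, the median at 4 h was 0.17 over 34 genes. Many of these mRNAs are known TTP targets, and the list was made with earlier results of these libraries known, so it is a description beside Tnf and not a test of AU-rich mRNAs.

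The cytokine, chemokine and enzyme genes of that list stood highest over WT at different times. Ptgs2 stood at 1.23 ± 0.13, 1.87 ± 0.14, 1.30 ± 0.13 and 0.41 ± 0.13 (log2, KO over WT, at 0, 1, 2 and 4 h) and passed at all but 4 h (adjusted p = 0.125, edgeR). At 2 h its value was above the 0.64 ± 0.15 of Tnf. Il6, which like Tnf stood highest at 1 h, had 0.66, 1.11, 0.58 and 0.36 and passed at each time. Ccl3 had 0.95, 1.63, 1.61 and 1.2, and Cxcl2 had 0.95, 1.59, 1.53 and 1.08, so for both the value at 2 h was close to that at 1 h. Il4, the type 2 cytokine that basophils are known for, had 0.03, 0.96, 1.67 and 1.68, and Il13 0.46, 1.33, 2.01 and 1.58, both with their highest values after 1 h. The KO minus WT change of the first hour passed for 3 of the 33 tested (edgeR). These were Areg (0.98), Il4 (0.93) and Ccl3 (0.68), and not Tnf (0.34). Over all genes 0.0618% passed for that change. Ccl2 and Ccl7, monocyte attractants that macrophages also make, stood between 1.97 and 2.92 at all times, and neither 3' UTR held TATTTAT.

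**Figure D4:**
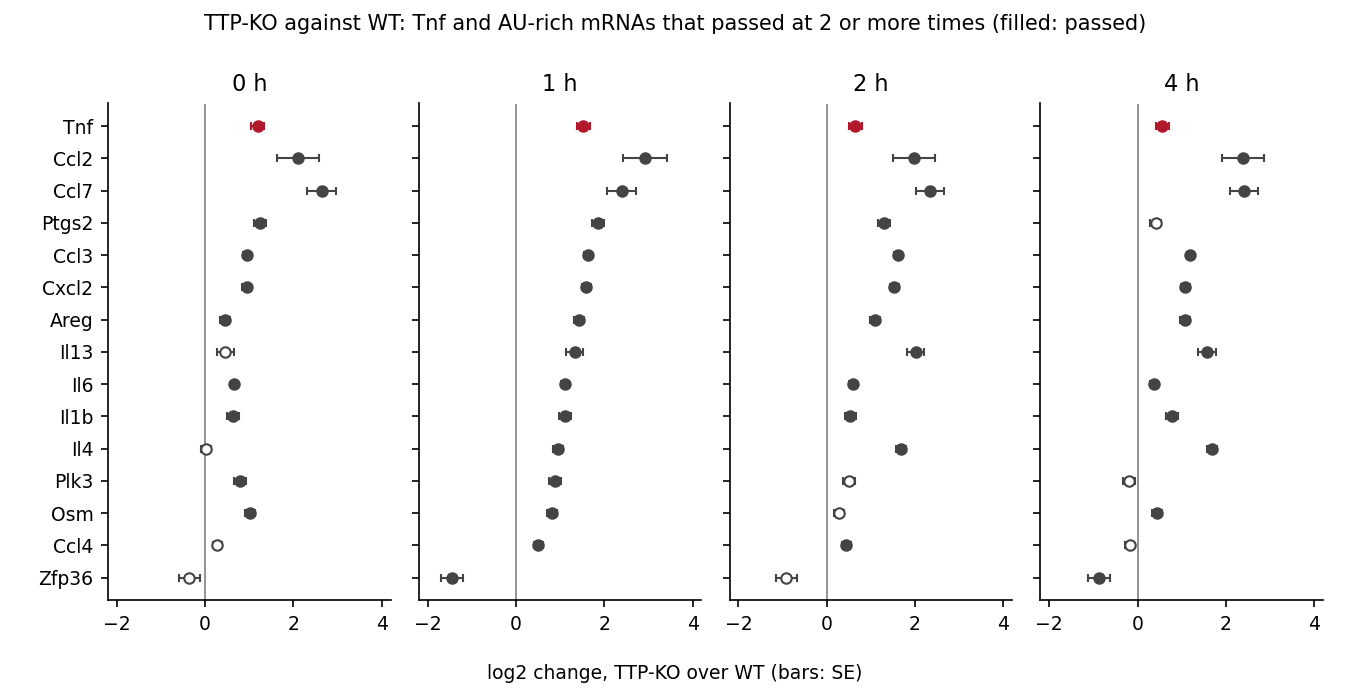
Log2 difference, TTP-KO over WT, with its SE, at 0, 1, 2 and 4 h for Tnf (red) and other genes of the AU-rich list. The genes shown passed in edgeR at 2 or more times, and points are filled where they passed. Tnf stands at 1.19, 1.53, 0.64 and 0.56, while Il4 stands at 0.03 and 1.68 at the ends of the course and Zfp36 lies below 0 throughout.

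The list also showed how Tnf's fall between 1 and 2 h in KO cells stood among its peers. In that step 11 of the 33 listed mRNAs fell and 3 rose in KO cells, and 10 fell and 2 rose in WT cells (edgeR). Over all genes 2.09% fell and 0.92% rose in KO cells in that step, and 2.1% and 0.696% in WT cells. In KO cells Ptgs2 fell by 2.01 ± 0.14, Plk3 (an inducible kinase) by 1.66 ± 0.14 and Ccl4 (a chemokine) by 1.14 ± 0.10, while Il6 fell by 0.45 ± 0.09 and Il1b rose by 0.67 ± 0.13. Tnf's own fall of 1.81 thus lay between those of Ptgs2 and Plk3. The KO minus WT difference of this step was -0.57 ± 0.19 for Ptgs2, -0.55 ± 0.16 for Osm (oncostatin M), -0.53 ± 0.12 for Il6, -0.02 ± 0.12 for Ccl3 and 0.71 ± 0.16 for Il4. None of these passed (edgeR; adjusted p between 0.255 and 1). Over the whole 4 h, 17 of the 33 fell in each genotype, Tnf among them, and 2 rose in KO cells and 3 in WT cells. Over all genes 10.6% fell and 7.45% rose in KO cells, and 9.97% and 6.76% in WT cells.

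The genes most like Tnf were sought by the Pearson correlation of their 8 group means, as log2(CPM + 1), among the 7078 genes averaging at least 10 CPM. The 8 most alike were Ptgs2 (r = 0.994), Zfp36l1 (0.990), Ctsg (0.989), Pfkfb3 (0.985), Maff (0.979), Ppp1r15a (0.975), Eaf1 (0.975) and Rps2 (0.975). The 8 points share libraries and the course of time, and 275 genes (3.89%) reached 0.9, so a high value is common and is given as a description. Ctsg (cathepsin G) is a granule protease, Pfkfb3 a regulator of glycolysis, Maff a transcription factor and Ppp1r15a a regulator of the integrated stress response. Rps2 is a ribosomal protein gene with near-identical copies, so its counts are uncertain.

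Shape and size differed among these genes. Ptgs2 spanned 4517 to 226 CPM over the KO times and 1920.0 to 170.3 CPM over the WT times, a wider span than that of Tnf, while Ctsg spanned 731 to 442 CPM in KO cells and 625 to 405 CPM in WT cells. Of the 8, Ptgs2 alone passed between the genotypes at any time (edgeR). Zfp36l1 reached 0.61 ± 0.19 at 1 h (adjusted p = 0.235, edgeR), Maff 0.83 ± 0.24 (adjusted p = 0.14) and Pfkfb3 0.70 ± 0.21 (adjusted p = 0.161). Copies of TATTTAT in their 3' UTRs numbered 6 in Ptgs2, 4 in Ppp1r15a, 3 in Zfp36l1, 2 each in Pfkfb3 and Maff, 1 in Eaf1, and 0 in Ctsg and Rps2.

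**Figure D5:**
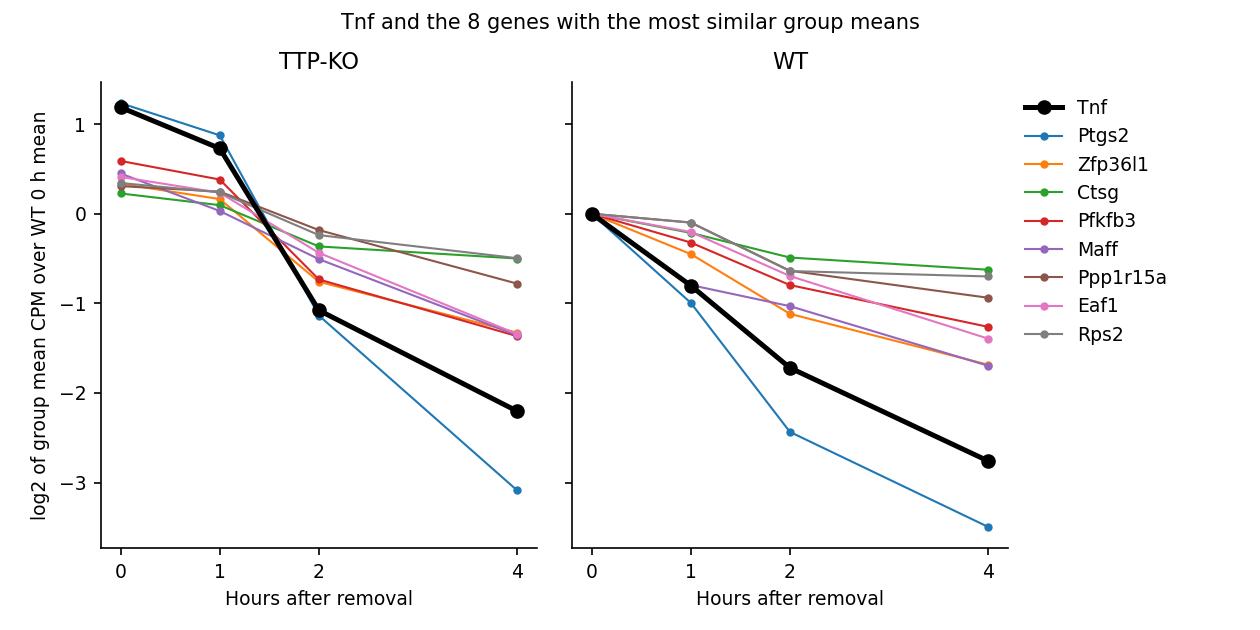
Group means of Tnf (black) and of the 8 genes with the highest correlation to it, as log2 of CPM over the gene's own WT 0 h mean, against hours after removal, for TTP-KO (left) and WT (right). Tnf and Ptgs2 start above 1 in KO cells and fall past -2 by 4 h, while the other 7 genes span a narrower range in both genotypes.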

How the data were processed

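Total RNA was sequenced as 3' tags (QuantSeq 3' V2 FWD, NovaSeq) after alkylation, per the labels' protocols. Per the submitters' processing notes, STAR 2.7.10a, cutadapt 3.5 and SAMtools were used with GRCm39. For the annotation, strand setting and filters nothing was stated. The authors deposited 1 table with expected counts (reads per gene and library, not normalized, 12.8% of values not whole). Its columns carry genotype, time and a letter, while the labels number replicates, and the 2 could not be matched. Each column therefore stands for 1 library of its genotype and time. Another 144 columns of per-sample values, GRAND-SLAM estimates per the file headers, were not used, so no decay rates are given.

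Reads were rounded and tested in R 4.3.3 with edgeR 4.0.16: TMM factors, filterByExpr, a quasi-likelihood fit with 8 group means over 24 libraries, and a second fit with a line in hours for each genotype. Calls needed a Benjamini-Hochberg adjusted p under 0.05 over the 12936 genes tested. The steps were tested on simulated data. Alternatives were DESeq2 1.42.0, other scalings, no filter, fewer groups or libraries, and the column letter as a block. The fit without the KO 4 h libraries B and C kept 1 KO library, A, at 4 h, so its 4 h values rest on that library. No libraries of a group repeated each other (chi-square per degree of freedom 30.2 to 78.7 over 24 pairs). Same-letter KO and WT libraries did not deviate together over the genes tested (r from -0.04 to 0.05 over 12 pairs). That cannot tell if they share mice or cultures, so whether letters pair them is unknown. Tnf had 683 to 16002 reads per library. Reads are not independent molecules.

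Tnf, the gene lists, the markers and the tests were chosen with earlier results of these data known. Beyond Tnf, genes were named if they passed between genotypes at 2 or more times in a list, if they lie beside Tnf, if they were among the 8 most alike, or, whatever their values, if they encode a TNF receptor, a releasing factor or a main binder of Tnf mRNA. Other genes, among them Dusp1, Mapkapk2, Traf5, Tab2 and Tnfsf13b, fall outside these rules and were named with their values known. The longest 3' UTR of each gene's protein-coding transcripts was searched.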

Additional observations from a re-analysis of the deposited data

How the results depend on the processing

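Of 589 values of 19 Tnf results under alternatives, 567 kept their direction and side of the threshold, 9 lost a call, 8 gained one and 5 changed sign. Most of these values come from leaving out 1 library, often one outside the groups compared, so the count does not measure how firm a call is. For KO against WT, leaving out 1 of the 24 libraries lost the call 3 times at 2 h and 4 times at 4 h. The KO excess at 0 h and 1 h passed under every alternative run, at 1.10 to 1.26 and 1.50 to 1.57 (log2) with each library left out. At 2 h it was 0.55 to 0.79 and at 4 h 0.46 to 0.77 with each library left out (adjusted p 0.0039 to 0.156 and 0.00248 to 0.193, edgeR), and 0.64 and 0.57, not passing, with only the groups compared. The KO change in the first hour passed at -0.46 with no filter, -0.45 in DESeq2, -0.43 with only the groups compared and -0.43 without the KO 4 h libraries B and C. The KO minus WT change from 1 to 2 h passed at -0.89 with no filter, -0.92 in DESeq2 and -0.91 without the KO 4 h libraries B and C, and lay between -0.98 and -0.76 with each library left out. That from 2 to 4 h had the other sign with library size only (0.014) and without the KO 4 h libraries B and C (0.12), and ran from -0.23 to 0.14 with each library left out (0.0079 without KO 2 h C, 0.14 without WT 4 h C, 0.026 without KO 4 h B). The cause of these shifts was not tested.

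Genes called between the genotypes at 0, 1, 2 and 4 h numbered 68, 65, 67 and 236. They numbered 123, 108 and 127 at 0, 1 and 2 h with no filter, 222, 199, 234 and 490 in DESeq2, 116, 41 and 47 at 0, 2 and 4 h with only the groups compared, and 134, 120, 146 and 130 without the KO 4 h libraries B and C. With each library left out they ran over 50 to 90, 56 to 81, 45 to 102 and 137 to 431; the 4 h count was 431 without KO 4 h A, 142 without B and 137 without C, and the 2 h count 102 without KO 4 h A and 101 without B. Higher calls made up 80%, 79.1% and 51.7% of calls at 1, 2 and 4 h, and 67.6%, 60.8% and 60.6% with library size only. The letter as replicate block changed no Tnf call (1.19, 1.53, 0.64 and 0.56) and gave 75, 76, 72 and 240 calls; nothing in the labels makes it a pairing. List counts under other scalings, bounds and DESeq2 were chosen after seeing the data. Genes of few reads such as Lta were not tested.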

Other observations

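Over the 4 h, 9 of the 20 genes that bind Tnf mRNA or control its decay fell and 1 rose in KO cells, and 6 fell and 1 rose in WT cells (edgeR, adjusted p under 0.05). Over all genes 10.6% fell and 7.45% rose in KO cells, and 9.97% and 6.76% in WT cells. Dusp1 fell by 3.24 ± 0.18 on the log2 scale in KO cells and by 3.27 ± 0.18 in WT cells, and Zfp36l1 by 1.66 ± 0.20 and by 1.69 ± 0.20. Mapkapk2, the p38-activated kinase that phosphorylates TTP, fell by 1.15 ± 0.14 in KO cells and by 0.90 ± 0.14 in WT cells. Zc3h12a fell by 1.63 ± 0.41 in KO cells and by 1.94 ± 0.42 in WT cells. Rc3h1 fell in KO cells by 1.48 ± 0.25 and stood at -0.53 ± 0.25 in WT cells without passing (adjusted p = 0.145). The difference between these changes, -0.95 ± 0.35, did not pass (adjusted p = 0.395, edgeR).

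Of the 31 genes of TNF receptor signalling, 5 fell and 0 rose in KO cells over the 4 h, and 4 fell and 1 rose in WT cells (edgeR), against the shares over all genes of 10.6% and 9.97% lower, so these counts are near the background. Tnfaip3 fell by 1.13 ± 0.23 in KO cells and by 1.32 ± 0.23 in WT cells, and Map3k5 (ASK1) by 1.02 ± 0.30 and by 1.28 ± 0.30. Nfkb1 fell by 0.56 ± 0.18 in KO cells and by 0.60 ± 0.18 in WT cells. Ripk1 and Cflar, which act in the death-signalling complex, fell in KO cells by 0.95 ± 0.32 and 0.51 ± 0.17, and stood at -0.15 ± 0.32 and -0.30 ± 0.17 in WT cells without passing. Nfkbia stood at -0.20 ± 0.12 in KO cells and fell by 0.43 ± 0.12 in WT cells. Tab2 stood at 0.07 ± 0.14 in KO cells and rose by 0.54 ± 0.14 in WT cells. The differences of these 4 genes between the genotypes did not pass (adjusted p between 0.456 and 0.952, edgeR). These genes were named after their values were seen.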
